A study of Mus musculus with 6 samples.

Results

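SR proteins and heterogeneous nuclear ribonucleoproteins (hnRNPs) are the 2 large families of RNA-binding proteins that decide which splice sites a cell uses. SR proteins bind exons through RNA recognition motifs and recruit the splicing machinery through a tail rich in arginine and serine, which kinases phosphorylate. hnRNPs coat nascent transcripts and often block the use of nearby splice sites, and several also act on mRNA export, stability and translation. Many genes of both families limit their own output by splicing their transcripts into forms that nonsense-mediated decay, the pathway that destroys mRNAs with a premature stop codon, removes. In macrophages these proteins act on the transcripts that inflammatory signals induce.

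All rows with a symbol starting with Srsf and a digit, or with Hnrnp, were taken, without 2 rows whose symbols end in a pseudogene tag. This gave 31 genes of 26835, of which 11 were SR and 20 were hnRNP genes. They were measured in K7M2-EV macrophages, given for 24 h 10 µg of vesicles that the mouse osteosarcoma line K7M2 releases, and in PBS macrophages, which received phosphate-buffered saline. Both groups were macrophages grown from bone marrow of wild-type BALB/C mice aged 5 to 8 weeks, cultured for 6 days with M-CSF at 25 ng/ml and 10% serum, with 3 independent experiments per group. The vesicle dose is given as an amount only, and no group with vesicles of another cell was included.

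Values are FPKM, fragments per exon length and library size. The spacing of low values implied 21435200 to 25604600 reads per library, and the tested members had at least 135 reads in every library. Of 8 macrophage markers, 6 rose, Mertk was not called and 1, Cd68, fell, to 202 FPKM with vesicles against 411 FPKM with PBS. The summed level of the 8 was 12690 to 14170 FPKM with vesicles and 4236 to 5120 FPKM with PBS. Most of this sum was Lyz2, with a mean of 10862 FPKM with vesicles and 3746 FPKM with PBS. All 13 genes of a mitotic list fell, with sums of 42.3 to 60.7 FPKM with vesicles and 196 to 250.5 FPKM with PBS. Of 5 neutrophil markers tested, 4 rose and S100a9 was not called. Sums over the 10 with a row were 75.4 to 89.5 FPKM with vesicles and 12.3 to 17.8 FPKM with PBS. Ly6g, Cxcr2, Retnlg, Ngp and Mpo were too low to be tested and averaged at most 0.45 FPKM in either group. Of these, Ly6g and Cxcr2, which mark mature neutrophils, were listed at 0 in all 3 vesicle libraries and averaged 0.036 and 0.12 FPKM with PBS. Stromal markers summed to 210, 569 and 205 FPKM in K7M2-EV replicates 1 to 3, against 122.6, 289 and 134 FPKM in PBS replicates 1 to 3, and replicate 2 was highest in both groups. Of 6 stromal markers tested, 0 were higher and 1 was lower in limma, with 0 higher also at an unadjusted p under 0.05 and with voom. With the replicate number as a block 4 were higher and 1 lower, and the sum was higher with vesicles in each same-numbered pair. Most of this sum was Col1a1, with 131, 354 and 128 FPKM in K7M2-EV replicates 1 to 3 and 65.4, 155 and 74.3 FPKM in PBS replicates 1 to 3. Whether shifts in cell composition or cycling contributed to the values below was not tested. In bulk RNA, fewer cells of a type and less RNA per cell cannot be told apart.

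Most SR and hnRNP mRNAs differed little between vesicles and PBS. A gene counted as changed at a Benjamini-Hochberg adjusted p under 0.05 in limma, fitted on log2(FPKM + 1) over 13009 genes. Of the 30 members tested, 6 changed, against 54.0% of all genes tested. The median size of the log2 fold change (K7M2-EV over PBS) was 0.12 among the members and 0.28 among all genes tested, and 0.28 among the 9060 genes with a mean level in the members' range. No member reached a log2 change of 1 in size, and 2 of 30 passed 0.5, or 6.67%, where 28.8% of all genes did. For 25 of 30 members, the 95% interval of the change lay within 0.5 on the log2 scale of 0. The exceptions were Hnrnpa0, Hnrnpa1, Hnrnpa3, Hnrnpll and Srsf1. This count was not made over all genes tested. It also depends on the added 1 FPKM, which shrinks changes of low genes. For Hnrnpr the log2 change was -0.20 with 1 added and -0.27 with 0.1 added.

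**Figure D1:**
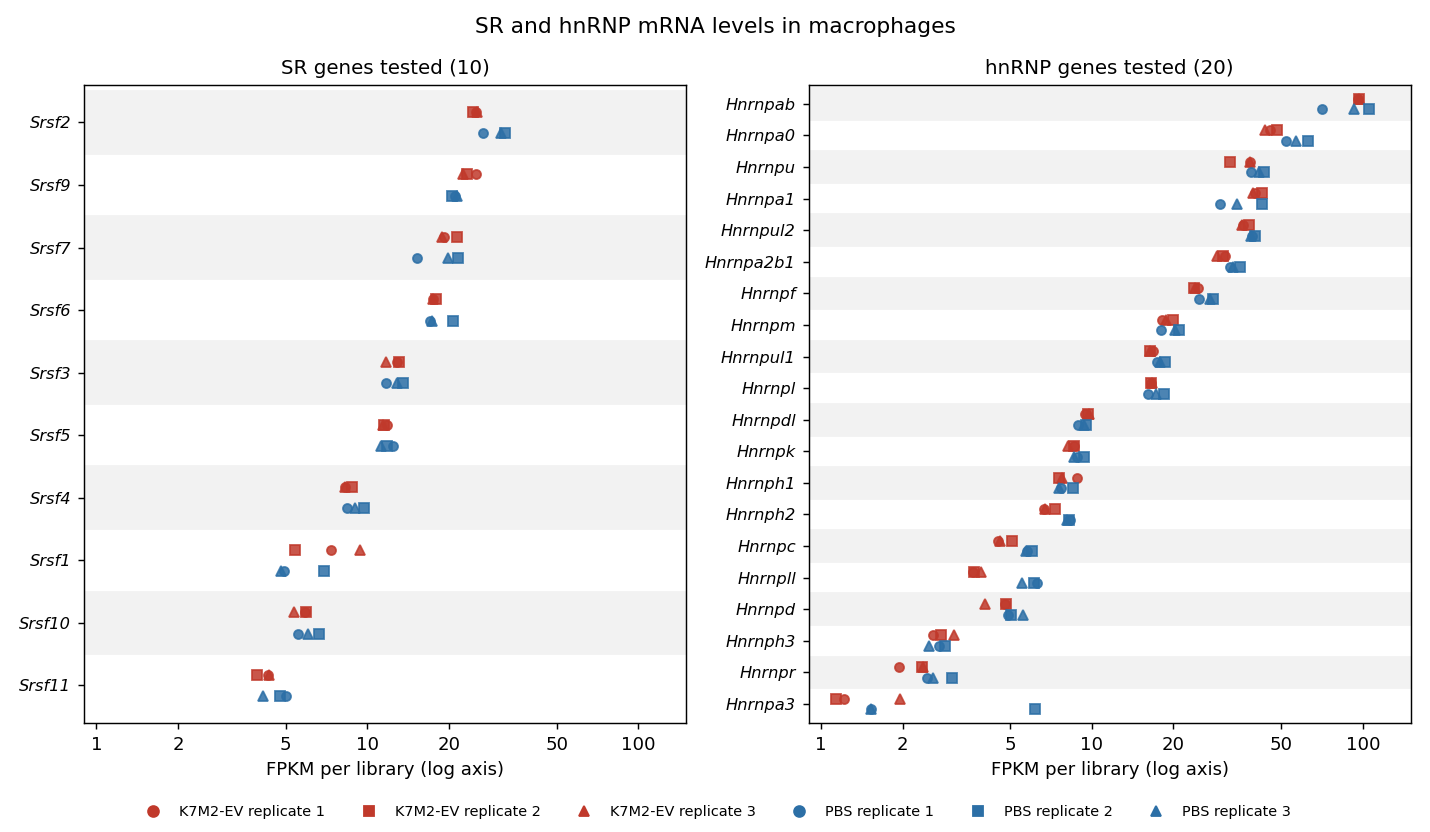
FPKM of the 10 SR and 20 hnRNP genes tested, on a log axis, 1 point per library, with K7M2-EV (red) above PBS (blue) for each gene and a marker shape for each replicate number. Within each family genes are ordered by mean level, in hnRNP genes from Hnrnpab near 93.1 FPKM to Hnrnpa3 near 2.25 FPKM, and most pairs of groups lie close together.

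Among SR genes, 1 was higher (18.4% of all genes tested were) and 1 was lower (35.6% were), and 8 were not called. The median log2 fold change was -0.041, against -0.12 for all genes tested. Srsf9, which encodes a small SR protein, had 25.1, 23.4 and 22.5 FPKM in K7M2-EV replicates 1 to 3 and 21.1, 20.6 and 21.5 FPKM in PBS replicates 1 to 3. Every vesicle library lay above every PBS library. The log2 change was 0.16 ± 0.056 (SE; limma adjusted p = 0.0497). This call was at the threshold. It was lost with the replicate number as a block (adjusted p = 0.0665), without K7M2-EV replicate 1 (0.152) or 2 (0.0942) and without PBS replicate 1 (0.0964), 2 (0.114) or 3 (0.0938).

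Srsf2, which encodes the nuclear SR protein SC35, was the SR gene with the highest mean level. It had 25.2, 24.6 and 25.3 FPKM with vesicles and 26.7, 32.2 and 31.1 FPKM with PBS, so that the groups did not overlap. The log2 change was -0.25 ± 0.077 (SE; limma adjusted p = 0.0345). The call was lost without K7M2-EV replicate 1 (adjusted p = 0.0833), 2 (0.0875) or 3 (0.0822), without PBS replicate 2 (0.0878) or 3 (0.11), and after median-of-ratios scaling, which gave -0.10 (0.261).

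Srsf1, the prototype SR protein gene, had the largest positive log2 change among the members, 0.34 with a 95% interval from -0.14 to 0.83, and was not called (limma adjusted p = 0.194). Its libraries held 7.32, 5.43 and 9.42 FPKM with vesicles and 4.95, 6.92 and 4.79 FPKM with PBS, values given here after they were seen. Replicate 2 was lowest among the vesicle libraries and highest among the PBS libraries. Without replicate 2 in both groups the change was 0.67 and was called (adjusted p = 0.0115). It was called in no other alternative. Over all fits with libraries left out, it ran from 0.092 to 0.67, with limma adjusted p from 0.0115 to 0.755.

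Srsf7, an SR protein gene that also serves mRNA export, had 19.2, 21.4 and 18.8 FPKM with vesicles and 15.3, 21.6 and 19.8 FPKM with PBS, and the groups overlapped. The others ran between -0.11 (Srsf11) and -0.016 (Srsf3), and none was called. Among them Srsf3 encodes the smallest SR protein, and Srsf10 an unusual member that represses splicing when dephosphorylated. For Srsf3 the 95% interval of the log2 change ran from -0.18 to 0.15, and for Srsf5 from -0.16 to 0.096. Srsf12 did not pass the filter of 1 FPKM in 3 libraries and was listed at 0 in all but PBS replicate 2, where it had 0.039 FPKM, worth 3 reads.

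Among hnRNP genes, 4 of 20 were lower, against 35.6% of all genes tested, and 16 were not called. In limma 0 were higher, also at an unadjusted p under 0.05 and with voom on the implied reads. The median log2 fold change was -0.13. Over both directions, 63.8% of all genes tested had groups that did not overlap. In 12 of 20 hnRNP genes every vesicle library lay below every PBS library, against 42.0% of all genes tested, and in 0 every vesicle library lay above, against 21.8%. Among the 10 SR genes 1 lay below and 1 above in this way. Overlap was counted on the FPKM as deposited and not under another scaling. Of the hnRNP genes lower without overlap, Hnrnpf, Hnrnpk, Hnrnpul1 and Hnrnpul2 had positive log2 changes after median-of-ratios scaling. The counts of called genes and the medians shifted with the scaling. With median-of-ratios factors, under which the median of all genes was 0.0013 in place of -0.12, 1 hnRNP gene was lower and 2 were higher, with a median of 0.015. After quantile normalization 8 were lower and 1 was higher, with a median of -0.10.

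Hnrnpll, which encodes a relative of hnRNP L known for directing alternative splicing of the Cd45 transcript in lymphocytes, had the lowest adjusted p of all members. It had 3.63, 3.68 and 3.89 FPKM in K7M2-EV replicates 1 to 3, against 6.27, 6.14 and 5.53 FPKM in PBS replicates 1 to 3. The groups were far apart relative to their spread. The log2 change was -0.56 ± 0.062 (SE; limma adjusted p = 0.000476), and it stayed called in each alternative that tested it. Its paralogue Hnrnpl, which binds CA repeats, had a log2 change of -0.054 with an interval from -0.20 to 0.087 and was not called. Of the lymphocyte markers only Ighm was tested, and it was lower too, at 0.966 FPKM with vesicles and 10.0 FPKM with PBS. The 4 markers with a row summed to 0.498 to 1.91 FPKM with vesicles and 8.88 to 11.2 FPKM with PBS. Nearly all of this was Ighm, and Cd3d, Cd79a and Ms4a1 averaged at most 0.033 FPKM in either group. Their part in the change of Hnrnpll was not tested.

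The A/B subfamily held the most abundant member, and 1 of its 5 genes was called. Hnrnpa0, whose protein binds AU-rich elements of inflammatory mRNAs, had 45.5, 48.1 and 43.6 FPKM with vesicles and 52.1, 62.7 and 56.5 FPKM with PBS. The groups did not overlap, and the log2 change was -0.31 ± 0.081 (SE; limma adjusted p = 0.0176). Without K7M2-EV replicate 1 (adjusted p = 0.0544) or 3 (0.0646), without PBS replicate 3 (0.0525), or after median-of-ratios scaling (-0.17, 0.091) the call was lost.

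Hnrnpab, which also binds AU-rich RNA, had the highest level of all 31 genes, at 95.8, 96.9 and 96.9 FPKM with vesicles and 70.9, 105.5 and 92.4 FPKM with PBS. The PBS libraries lay on both sides of the vesicle libraries, and the change of 0.13 was not called. Hnrnpa1, a widely studied splicing repressor, had 40.1, 42.5 and 39.3 FPKM with vesicles and 29.7, 42.6 and 34.4 FPKM with PBS. PBS replicate 2 alone overlapped the vesicle libraries, and the log2 change of 0.20 was not called (limma adjusted p = 0.225). Without that library it was 0.34 and called (adjusted p = 0.0204), as it was after median-of-ratios scaling (0.345, adjusted p = 0.043). Leaving out PBS replicate 1, the lowest library, gave 0.083 and no call (limma adjusted p = 0.54). Hnrnpa2b1, a sorting and splicing factor, had 31.0, 30.6 and 28.9 FPKM with vesicles and 32.3, 35.1 and 33.1 FPKM with PBS. These groups did not overlap, and the change of -0.15 missed the threshold (limma adjusted p = 0.067).

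Hnrnpc, whose protein binds uridine tracts and keeps cryptic exons out, had 4.51, 5.07 and 4.56 FPKM with vesicles and 5.75, 6.02 and 5.73 FPKM with PBS. The log2 change was -0.26 ± 0.058 (SE; limma adjusted p = 0.00992), without overlap between groups. Hnrnph2, of the subfamily that binds runs of guanine, had 6.66, 7.33 and 6.69 FPKM with vesicles and 8.31, 8.24 and 8.08 FPKM with PBS. Here too all vesicle libraries were lower, with a log2 change of -0.22 ± 0.053 (SE; limma adjusted p = 0.012). For both genes the call was lost without replicate 1 in both groups (adjusted p = 0.0793 for Hnrnpc and 0.105 for Hnrnph2), without replicate 3 in both groups (0.101 and 0.116) and after median-of-ratios scaling (0.0817 and 0.184). The other F/H genes, Hnrnpf, Hnrnph1 and Hnrnph3, had log2 changes of -0.14, 0.017 and 0.045 and were not called.

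The U subfamily, whose founder Hnrnpu encodes a nuclear scaffold protein, was lower without overlap in all 3 members, as were 42.0% of all genes tested, and called in none. Hnrnpu had 38.4, 32.3 and 38.2 FPKM with vesicles and 38.7, 43.2 and 41.2 FPKM with PBS, a log2 change of -0.18 (limma adjusted p = 0.123). Hnrnpul1 and Hnrnpul2 had log2 changes of -0.11 and -0.093, which turned to 0.029 and 0.051 with median-of-ratios factors. With quantile normalization Hnrnpu (-0.26, limma adjusted p = 0.0374) and Hnrnpul2 (-0.16, 0.0347) were called lower. Hnrnpd, whose protein AUF1 promotes decay of AU-rich mRNAs, had a log2 change of -0.16 and its relative Hnrnpdl one of 0.048, neither called. The poly-C binding Hnrnpk (-0.072), Hnrnpm (-0.056) and Hnrnpr (-0.20) were not called either.

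**Figure D2:**
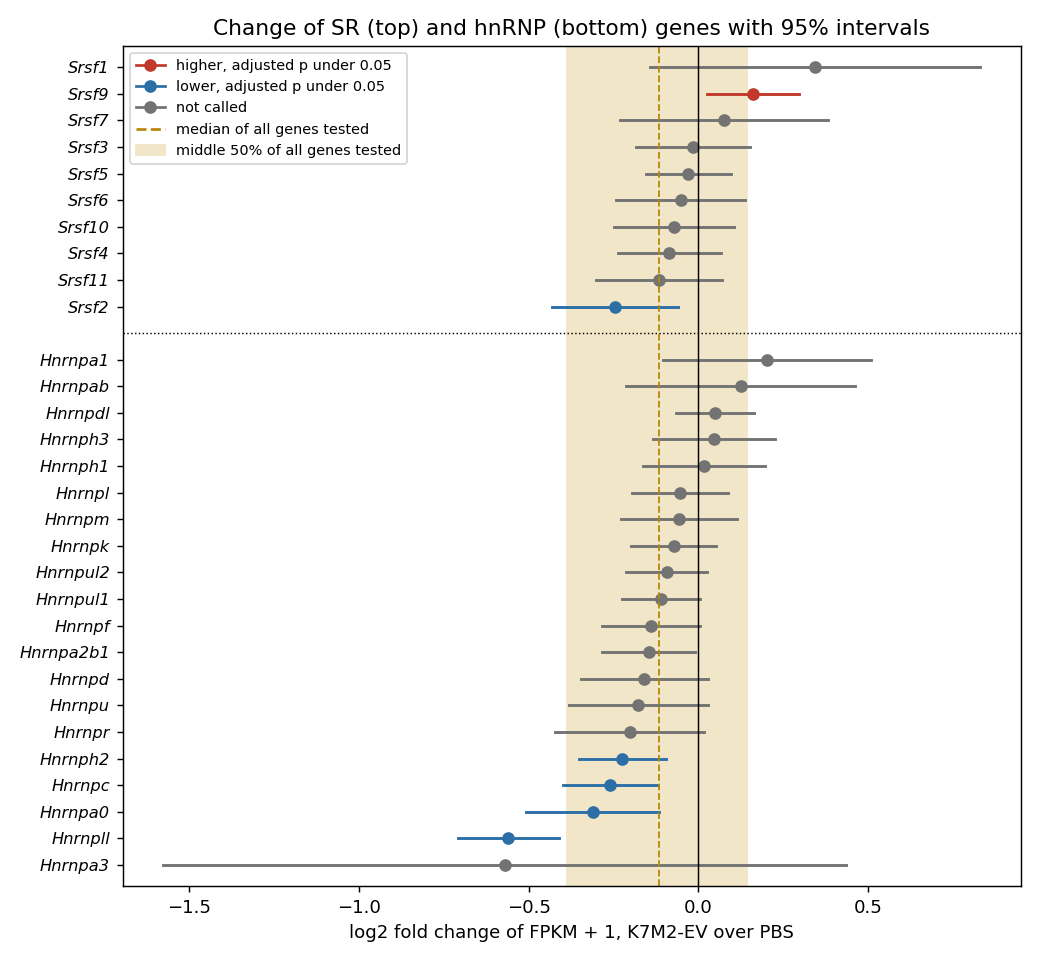
Log2 fold change of FPKM + 1, K7M2-EV over PBS, for the 10 SR genes (top) and 20 hnRNP genes (bottom), as points with 95% intervals from limma. The band spans the middle 50% of all 13009 genes tested (-0.39 to 0.14) and the dashed line their median (-0.12). The members lie mostly inside the band, with Hnrnpll called below it and Hnrnpa3 not called and wide.

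For 5 of the 6 called genes RefSeq gives a promoter window on GRCm38.p6, 250 bases before the start and 50 after it. They are shown because these are the genes whose mRNA level passed the test. Each is written 5′ to 3′ on the gene's strand, and capitals mark any of 5 motifs on either strand: the TATA box TATAAA, the CCAAT box CCAAT, the GC box GGGCGG, the ETS site CCGGAAG and the E-box CACGTG. Motifs that overlap merge into 1 run of capitals.
Srsf9 (higher), chr5:115326927-115327226, plus strand: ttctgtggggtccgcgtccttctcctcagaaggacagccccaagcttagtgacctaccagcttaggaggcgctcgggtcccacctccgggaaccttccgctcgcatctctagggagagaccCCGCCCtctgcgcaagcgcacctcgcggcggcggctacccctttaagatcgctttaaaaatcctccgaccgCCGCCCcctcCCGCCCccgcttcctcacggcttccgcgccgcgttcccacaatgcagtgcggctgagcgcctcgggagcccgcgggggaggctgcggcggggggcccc
Srsf2 (lower), chr11:116853045-116853344, minus strand: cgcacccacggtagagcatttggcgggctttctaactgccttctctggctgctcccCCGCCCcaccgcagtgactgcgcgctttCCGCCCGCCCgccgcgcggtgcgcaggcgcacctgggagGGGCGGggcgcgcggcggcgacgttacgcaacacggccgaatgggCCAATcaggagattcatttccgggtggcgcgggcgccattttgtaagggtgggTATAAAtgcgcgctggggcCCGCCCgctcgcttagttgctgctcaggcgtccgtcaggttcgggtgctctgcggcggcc
Hnrnpa0 (lower), chr13:58128507-58128806, minus strand: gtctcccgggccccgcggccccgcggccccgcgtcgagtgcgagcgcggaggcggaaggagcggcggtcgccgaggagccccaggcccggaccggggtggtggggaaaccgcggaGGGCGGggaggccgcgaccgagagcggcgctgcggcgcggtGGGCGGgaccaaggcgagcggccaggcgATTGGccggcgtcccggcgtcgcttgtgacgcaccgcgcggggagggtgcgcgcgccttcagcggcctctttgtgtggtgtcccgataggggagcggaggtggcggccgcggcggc
Hnrnpc (lower), chr14:52103972-52104271, minus strand: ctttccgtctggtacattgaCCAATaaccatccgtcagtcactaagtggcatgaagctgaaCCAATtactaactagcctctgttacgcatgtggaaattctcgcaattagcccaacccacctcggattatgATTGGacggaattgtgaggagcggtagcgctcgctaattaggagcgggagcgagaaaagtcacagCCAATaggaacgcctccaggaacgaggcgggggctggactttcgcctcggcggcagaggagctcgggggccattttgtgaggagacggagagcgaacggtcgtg
Hnrnph2 (lower), chrX:134600929-134601228, plus strand: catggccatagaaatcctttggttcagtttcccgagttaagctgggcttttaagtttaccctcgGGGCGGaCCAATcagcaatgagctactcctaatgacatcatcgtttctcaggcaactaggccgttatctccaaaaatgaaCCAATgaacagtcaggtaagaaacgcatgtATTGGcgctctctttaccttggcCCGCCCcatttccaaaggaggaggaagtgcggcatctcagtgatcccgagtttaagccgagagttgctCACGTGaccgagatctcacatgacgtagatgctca

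These windows differ in make-up. Hnrnpc has 4 CCAAT boxes and no GC box in this window, at 54.3% G and C. Srsf9 has 3 GC boxes and no CCAAT box at 69.0%, and Srsf2 has 5 GC boxes, 1 CCAAT box and 1 TATA box at 69.3%. Hnrnpa0 is richest in G and C, at 79.7% with 52 CpG pairs, and Hnrnph2, at 49.0%, is the window here with an E-box. Over the 29 members with a window, 24 had a GC box in at least 1 window (82.8%), against 38.2% of 27025 genes. These 27025 are all genes with a window, tested here or not, whereas every one of the 29 members but Srsf12 was tested. Shares among the tested genes alone were not computed. A CCAAT box was found for 17 of 29 (58.6%), against 41.1% of genes, and for 4 of 11 SR and 13 of 18 hnRNP genes. An ETS site was found for 20.7% of members and 9.93% of genes, an E-box for 17.2% and 8.09%, and a TATA box for 13.8% and 15.7%. The members' windows had a median of 68.3% G and C and 31 CpG pairs, against 52.7% and 7 over all windows. A match is a stretch of letters and not a measured binding site, and genes with several windows had more chances of one.

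On GRCm38 (GENCODE M21), Srsf9 lies on chromosome 5 at 115327177 to 115333080, Srsf2 on chromosome 11 at 116849901 to 116853094 and Hnrnpa0, a gene with a single annotated transcript, on chromosome 13 at 58125879 to 58128556. Hnrnpc lies on chromosome 14 at 52073377 to 52104028, Hnrnph2 on X at 134601179 to 134607060 and Hnrnpll on chromosome 17 at 80029487 to 80062334. Hnrnpll and Srsf7 are near each other there, since Srsf7 spans 80200080 to 80207307 on the same minus strand, and only Hnrnpll of the pair was called. Transcripts annotated as targets of nonsense-mediated decay exist for 9 of 11 SR genes (81.8%) and 10 of 20 hnRNP genes, against 29.1% of 9946 protein-coding genes tested. Retained-intron transcripts are annotated for 8 SR and 14 hnRNP genes (72.7% and 70.0%), against 60.6%. The median number of annotated transcripts was 7 for SR genes, 8 for hnRNP genes and 5 for all protein-coding genes tested. Genes with more transcripts had more chances of either form. The deposited values sum all transcripts of a gene, so a switch between productive and decay-targeted forms was not measured here.

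SR genes were set against hnRNP genes without a test, since genes are not replicates. The median log2 change of SR genes lay 0.085 above that of hnRNP genes, and between 0.046 and 0.10 above it in the alternatives. Summed over the family, SR mRNA came to 137.5, 136 and 135 FPKM in K7M2-EV replicates 1 to 3 and 128, 148 and 138 FPKM in PBS replicates 1 to 3. The PBS libraries spanned the vesicle libraries. hnRNP mRNA summed to 415, 418 and 411 FPKM with vesicles and 396, 480.1 and 436 FPKM with PBS, and again the groups overlapped. The ratio of the SR sum to the hnRNP sum does not depend on the library's scaling. It was 0.331, 0.326 and 0.328 with vesicles and 0.323, 0.309 and 0.316 with PBS, higher in every vesicle library by a small margin. Such sums weigh abundant genes most, so the ratio need not hold for the families as a whole. Hnrnpa0 averaged 45.7 FPKM with vesicles and 57.1 FPKM with PBS. Hnrnpab went the other way, with 96.5 FPKM and 89.6 FPKM. How far the ratio rests on Hnrnpa0 was not tested.

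Within the PBS group 1 library stood out for these genes. PBS replicate 2 was the highest of its group for 24 of 30 members, against 41.6% of all genes tested. PBS replicate 1 was the lowest for 19, a count that was not made over all genes. In the vesicle group no library was highest for more than 13 members. That library was K7M2-EV replicate 2, which was highest for 38.6% of all genes tested. PBS replicate 2 also had the highest mitotic sum of its group, 250.5 FPKM, and the highest stromal sum, 289 FPKM. Their part in the members' levels was not tested. Without PBS replicate 2, 0 SR genes were called in limma, 4 hnRNP genes were lower and 1, Hnrnpa1, was higher.

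Near-identical pseudogenes limited what the values say for several members. Transcripts of other genes matched a member's longest coding transcript at 95% identity or more over at least 500 bases for 11 of 31 members. For Hnrnpm and Srsf3, which are among the 11, the only match was to a gene not annotated as a pseudogene. Hnrnpa3, a nuclear A/B protein gene, had 24 such matches, of which 23 are annotated as pseudogenes, and 21 of these had a row. It had 1.21, 1.13 and 1.96 FPKM with vesicles and 1.52, 6.14 and 1.54 FPKM with PBS. PBS replicate 2 stood far above every other library. The change of -0.57 (95% interval -1.57 to 0.43) was not called, and without replicate 2 in both groups it was 0.016. The pseudogene rows held 82.3% to 95.5% of the reads on Hnrnpa3 and its copies together. In implied reads scaled to library size (RPM), gene and copies summed to 126, 136 and 131 RPM with vesicles and 135.5, 187 and 151 RPM with PBS, so that PBS replicate 2 stayed highest and the groups overlapped slightly.

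For Hnrnpa1 the 7 pseudogenes with a row held 52.8% to 55.2% of the combined reads, for Hnrnpf 53.7% to 55.4% and for Hnrnpk 71.2% to 73.1%. Hnrnpa1 and its copies gave 271, 299 and 267 RPM with vesicles and 205, 291 and 230 RPM with PBS, and the groups overlapped as for the gene alone. For Hnrnpf the combined values were 164, 158 and 164 RPM with vesicles and 166, 185 and 180.4 RPM with PBS, without overlap. Hnrnpk and its copies gave 199, 203 and 196 RPM with vesicles and 197, 225.5 and 204 RPM with PBS. These groups overlapped, whereas Hnrnpk alone was lower without overlap. For the SR gene Srsf5 a single pseudogene row held 29.5% to 32.4% of the combined reads. Gene and copy summed to 69.2, 65.5 and 67.4 RPM with vesicles and 70.5, 68.8 and 64.5 RPM with PBS, and the groups overlapped. Among called genes, copies took 11.8% to 14.7% of reads for Hnrnpc and 3.5% to 5.78% for Hnrnph2, and both stayed lower without overlap when copies were added. Srsf2, Srsf9, Hnrnpa0 and Hnrnpll had no match of this size. The sources used here do not say how reads that fit several sites were placed.

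**Figure D3:**
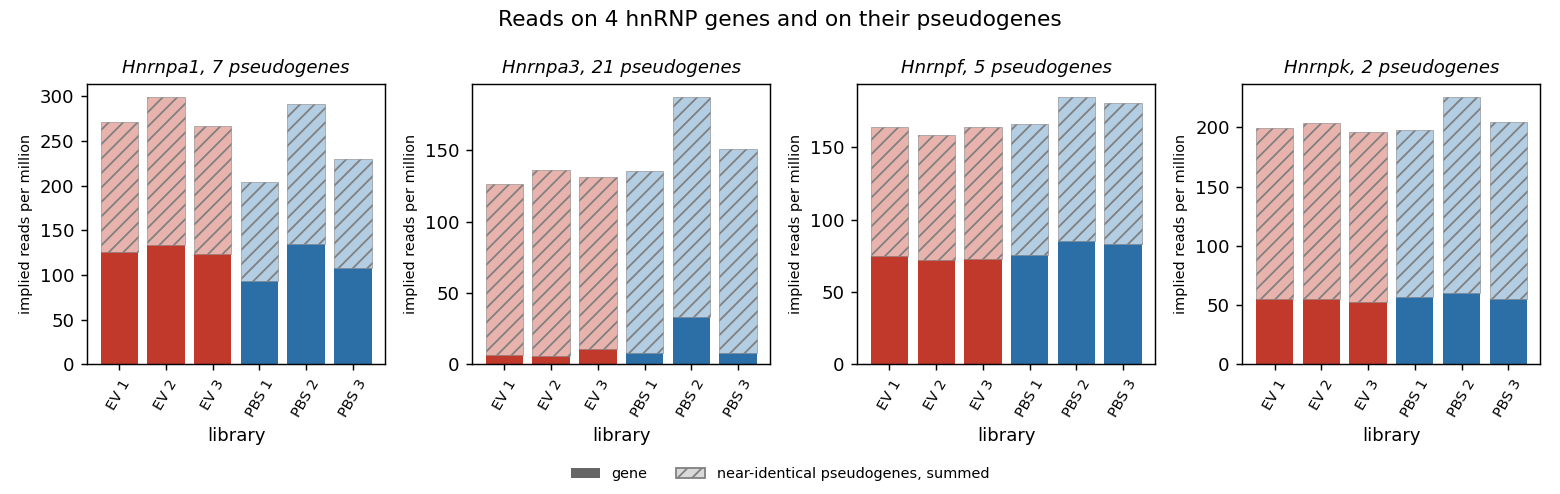
Implied reads, as RPM, on Hnrnpa1, Hnrnpa3, Hnrnpf and Hnrnpk (solid) and on their near-identical pseudogenes (hatched), stacked, for the 3 K7M2-EV libraries (red, left) and the 3 PBS libraries (blue, right), 1 bar per library from 0. Pseudogene rows hold most of the stack in each, up to 95.5% for Hnrnpa3.

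Several enzymes that act on SR proteins were lower at the mRNA level. Of 11 tested genes for SR kinases, import receptors and a phosphatase, 8 were lower (35.6% of all genes tested were) and 2 were higher (18.4% were), with a median log2 change of -0.22. Either rescaling, by median of ratios or by quantiles, left 4 lower and 2 higher. Between 4 and 6 were lower when any 1 library was left out, with 4 without K7M2-EV replicate 1 or PBS replicate 2, and 5 without K7M2-EV replicate 2, K7M2-EV replicate 3 or PBS replicate 1.

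Srpk2, a kinase that phosphorylates SR proteins in the cytoplasm, had 2.04, 2.22 and 2.03 FPKM in vesicle libraries and 4.40, 4.48 and 4.53 FPKM in PBS libraries. It fell in all 3 libraries to less than any PBS value, with a log2 change of -0.82 ± 0.055 (SE; limma adjusted p = 5.69e-05). Clk4 and Clk1 encode nuclear kinases that release SR proteins from speckles. Clk4 had 2.69, 2.38 and 2.40 FPKM with vesicles and 4.41, 4.09 and 4.24 FPKM with PBS (log2 change -0.59, limma adjusted p = 0.000389). Clk1 had 4.52, 4.25 and 4.41 FPKM with vesicles and 6.51, 5.97 and 5.63 FPKM with PBS (log2 change -0.38, limma adjusted p = 0.0026). Both were lower without overlap, whereas their relative Clk3 was higher, at 4.11, 3.74 and 3.99 FPKM with vesicles and 3.44, 3.09 and 3.36 FPKM with PBS. The Clk3 change of 0.20 lost its call without K7M2-EV replicate 1 (limma adjusted p = 0.103) or 3 (0.0909) and without PBS replicate 2 (0.0796) or 3 (0.0693).

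Srpk1 fell to 4.92 ± 0.014 FPKM with vesicles, against 5.91 ± 0.465 FPKM with PBS (SD, n = 3 each; limma adjusted p = 0.0236). That call was lost on leaving out any 1 K7M2-EV library (adjusted p 0.0579 to 0.0673), without PBS replicate 2 (0.0528) or 3 (0.0639) and with either scaling (0.192 and 0.106). Tnpo1, whose product transportin carries hnRNP A proteins into the nucleus, fell to 19.1 ± 0.832 FPKM with vesicles, against 26.4 ± 0.457 FPKM with PBS (log2 change -0.45, limma adjusted p = 0.000571). Tnpo3, the import receptor of SR proteins, had 4.68 ± 0.076 FPKM with vesicles and 4.79 ± 0.197 FPKM with PBS and was not called. The phosphatase gene Ppp1ca rose to 238 ± 10.8 FPKM with vesicles, against 196 ± 10.0 FPKM with PBS (limma adjusted p = 0.011). The calls of Srpk2, Clk1, Clk4 and Tnpo1 held in each alternative that tested them.

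**Figure D4:**
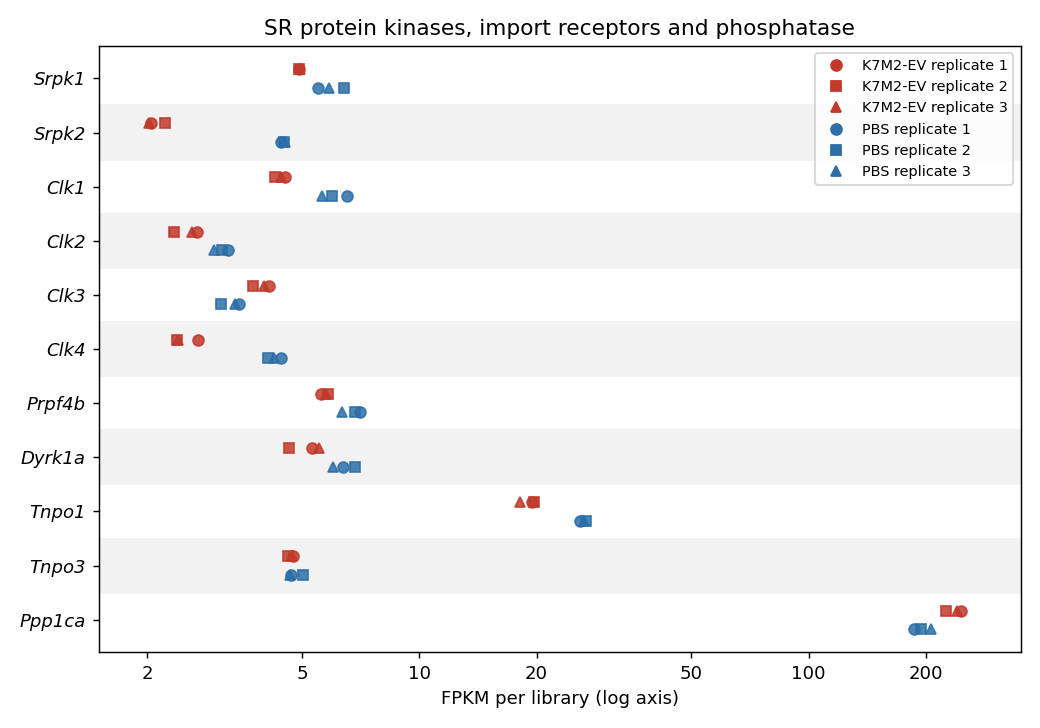
FPKM of 11 genes for SR protein kinases, import receptors and a phosphatase, on a log axis, 1 point per library, with K7M2-EV (red) above PBS (blue). Srpk2, Clk1, Clk4 and Tnpo1 show vesicle libraries well left of all PBS libraries, while Clk3 and Ppp1ca lie to the right and Tnpo3 overlaps.

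Other splicing genes had list medians near 0. Beside the counts in these lists, 18.4% of all genes tested were higher and 35.6% were lower. Of 15 SR-related coactivators, 3 were lower in limma, 0 were higher (0 also at an unadjusted p under 0.05 and with voom), and the median log2 change was -0.025. These were Srek1 (-0.19), Srrm2 (-0.17) and Rbm25 (-0.15), which encode spliceosome-associated proteins with arginine and serine repeats. After median-of-ratios scaling 5 of the 15 were higher and 0 lower, and with the replicate block 1 was lower. Without K7M2-EV replicate 3 or PBS replicate 3, 1 was lower, and without any other single library 0 were lower in limma. Tra2b, an SR-like splicing activator gene, was at 10.1 FPKM with vesicles and 9.98 FPKM with PBS and was not called. Of 34 core spliceosome genes, 4 rose and 5 fell (median -0.054), with Dhx38, a helicase gene, at 0.41 and Sf3a2, a U2 particle gene, at -0.34. With median-of-ratios scaling 9 were higher and 1 lower. Without any 1 of the K7M2-EV libraries, or without PBS replicate 3, 2 were higher and 3 lower. Without PBS replicate 1 the counts were 2 higher and 5 lower, and without PBS replicate 2 they were 7 higher and 3 lower.

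Of 18 genes for hnRNP-type proteins with other symbols, 2 rose and 4 fell (median -0.020), against 18.4% and 35.6% of all genes tested. With median-of-ratios scaling 6 were higher and 3 lower. Qk, which encodes the quaking RNA-binding protein, fell to 30.6 FPKM with vesicles, against 46.9 FPKM with PBS (log2 change -0.60, limma adjusted p = 0.000227). Cirbp, a cold-inducible RNA-binding protein gene, and Mbnl1, a splicing regulator gene, fell by 0.57 and 0.42 on the log2 scale. Ptbp3 rose by 0.30 and Taf15 by 0.28, the call of Taf15 being lost without K7M2-EV replicate 3 (limma adjusted p = 0.051). Ptbp1, the main polypyrimidine tract-binding protein gene, was at 10.2 FPKM with vesicles and 9.45 FPKM with PBS and was not called. Among 10 nonsense-mediated decay genes, 2 rose and 2 fell (median -0.026), against the same 18.4% and 35.6% of all genes tested. The helicase gene Upf1 was at 0.25, Smg8 at 0.17, Upf3b at -0.65 and Smg6 at -0.32. With either rescaling 4 were higher and 2 lower. The Smg8 call (limma adjusted p = 0.044) was lost without K7M2-EV replicate 1 (0.0962) or 3 (0.136), without PBS replicate 1 (0.0998), 2 (0.11) or 3 (0.06), and with no filter, plain eBayes or voom.

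**Figure D5:**
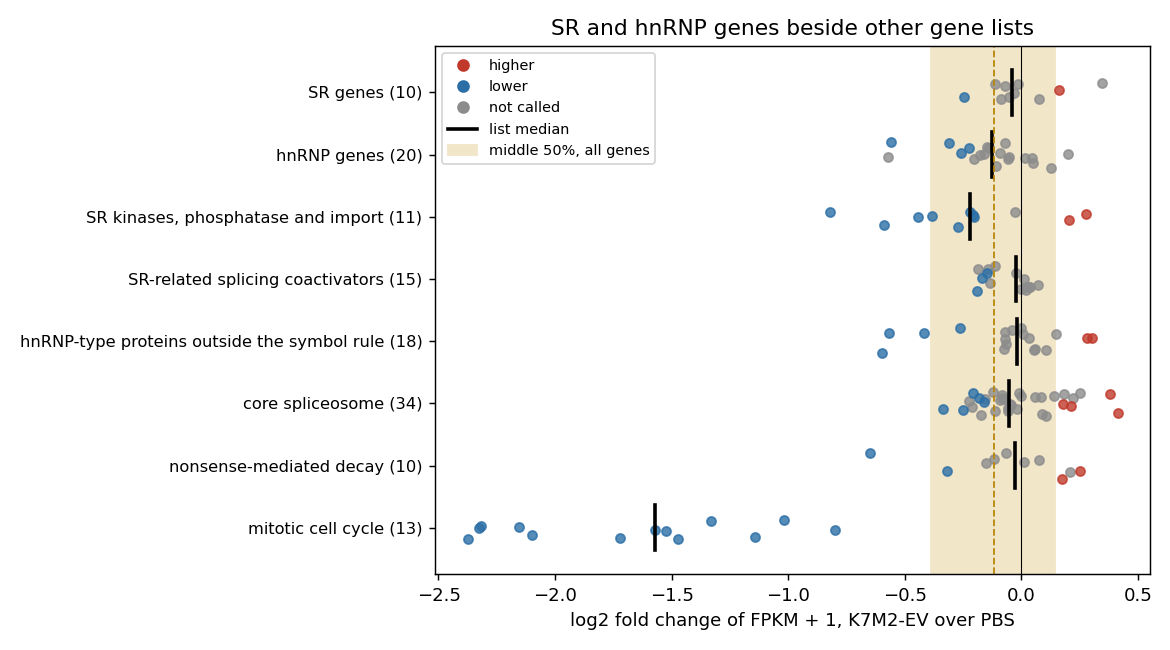
Log2 fold change of FPKM + 1, K7M2-EV over PBS, for each tested gene of the SR and hnRNP families and of 6 other lists (number tested in brackets), with vertical offsets for display only. Black bars are list medians, at -0.041 for SR genes, -0.13 for hnRNP genes and -1.57 for mitotic genes, and the band spans the middle 50% of all genes tested.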

How the data were processed

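RNA from 3 K7M2-EV and 3 PBS libraries was measured by sequencing. Each library has its own table of FPKM as deposited, with 26883 rows. Per the submitters' processing notes, CASAVA 1.8, HISAT2 2.1.0, StringTie 1.3.4b, edgeR and GRCm38 were used, without the role of each. Whether counting used strand is not stated in the sources used here, and reads of overlapping genes cannot be told apart.

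1 row without a value was dropped, and 47 repeated symbols were reduced to the row with the highest mean. A gene was tested if 3 or more libraries reached 1 FPKM. limma 3.58.1 under R 4.3.3 was run on log2(FPKM + 1) (eBayes with trend and robust, statmod 1.5.0), without further scaling or a block. Fold changes on this scale understate those of low genes. SD and SE come from 3 libraries per group.

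FPKM times GENCODE M21 exon length (99.5% of genes matched by symbol) gave values within 0.1 of whole reads for 72.5% to 73.4% of values up to 20 reads at the best library total, against 14.3% to 15.8% at other totals. Levels between genes are therefore per length of all annotated exons, 1653 bases for Srsf9 to 22199 bases for Hnrnpr. Copies were sought with BLAST 2.17.0.

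Libraries sharing a replicate number had correlated deviations from the means of their groups (0.317, 0.294 and 0.209 over genes for numbers 1 to 3). This pairing rests on the values alone, since no label states it. The reported calls come from the fit without a block, and the blocked fit was run beside it. Only the limma fit without a block was tested on simulated data. The simulated noise was independent and lacked the correlation between same-numbered libraries. Tables and plots used pandas 2.3.3, numpy 2.4.6 and matplotlib 3.10.9 on Python 3.11.15.

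The members and lists were chosen with earlier results of these data known. Values per library are given for called members, the 3 highest of each family and those below the filter, and where stated for others. From other lists the 3 largest called changes in each direction were eligible, with Srpk1, Srpk2, Clk1, Tra2b and Ptbp1 in any case. Alternatives were other pseudocounts, filters and scalings, a replicate block, plain eBayes, left-out libraries and, chosen after seeing the data, voom on implied reads.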

Additional observations from a re-analysis of the deposited data

How the results depend on the processing

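The SR median stayed above the hnRNP median in all alternatives. Leaving out 1 library gave 1772 to 2390 genes higher and 3296 to 4253 lower over all genes, 0 to 1 SR genes higher, 0 to 1 SR genes lower, 0 to 1 hnRNP genes higher and 3 to 5 lower. Leaving out both libraries of replicate 1 gave 1509 genes higher and 2805 lower over all, with 0 SR genes higher and 2 hnRNP genes lower. Without replicate 2 in both groups 0 SR genes were lower and 1 hnRNP gene was higher. Without replicate 3 in both groups 1283 genes were higher and 2186 lower, with 0 SR genes called and 1 hnRNP gene lower. A mean of at least 5 FPKM, which tests fewer genes, left 1950 lower over all. Median-of-ratios factors gave 2 hnRNP genes higher, 1 lower and 0 SR genes lower, and over all genes 3454 higher and 3337 lower, against 2395 and 4631 without them. Quantile normalization gave 1 hnRNP gene higher, 8 lower and 0 SR genes higher, with 3135 and 3282 over all genes. With the replicate block 0 SR genes were higher, since Srsf9 missed the threshold, and no other member's call changed. Plain eBayes and voom on implied reads, the last chosen after seeing the data, also gave 0 SR genes higher, and no filter gave 0 higher and 0 lower. Beyond the number of genes or samples used, the cause was not tested.

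Small, uncalled log2 changes turned sign. With median-of-ratios factors these were Hnrnpf (0.0018), Hnrnpk (0.060), Hnrnpl (0.085), Hnrnpm (0.084), Hnrnpul1 (0.029), Hnrnpul2 (0.051), Srsf10 (0.055), Srsf11 (0.0055), Srsf3 (0.12), Srsf4 (0.047), Srsf5 (0.11) and Srsf6 (0.088), and with quantile normalization Srsf10 (0.011), Srsf3 (0.0022) and Srsf5 (0.00049). Leaving out 1 library gave -0.033 to 0.251 for Hnrnpab, -0.044 to 0.064 for Hnrnph1, -0.0061 to 0.087 for Hnrnph3, -0.068 to 0.030 for Srsf3, -0.063 to 0.0050 for Srsf5, -0.0999 to 0.032 for Srsf6, -0.061 to 0.175 for Srsf7 and -0.0058 to 0.044 for Tra2b. Leaving out both libraries of replicate 1 gave -0.027 for Hnrnpab, -0.063 for Hnrnph1, -0.041 for Srsf7 and -0.031 for Tra2b. Without both of replicate 2 Hnrnpa3 was at 0.016 and Srsf6 at 0.019, and without both of replicate 3 Hnrnph3 was at -0.045 and Srsf3 at 0.041. Every tested member had 135 or more reads in each library, which puts its counting error at 8.61% or less.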
